A study of Mus musculus with 6 samples.

Results

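The 379 windows of 200 bp described here came from mouse small intestinal organoids. Each held many reads in every library, and its mean levels with and without the cytokine RANKL lay within a set ratio. A window was taken when it held at least 80 CPM (its read count scaled to the total over all windows of the library) in each of 6 bulk ATAC-seq libraries and when the ratio of the RANKL mean to the control mean lay between 2/3 and 3/2. This picked 379 of 55056 windows. The level of the windows and their RANKL to control ratio therefore chose them and are given below as a description, without a test.

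ATAC-seq marks open chromatin by the places where the transposase Tn5 can insert sequencing adapters. The RANKL organoids had received 100 ng/ml RANKL, the TNF family cytokine that drives microfold (M) cell differentiation, and were taken on day 6, against controls in ENR medium (EGF, Noggin and R-spondin 1) of the same day (n = 3 libraries each, 50000 cells per library). Both groups came from a single organoid line, line26, grown from a female mouse that carried the Lgr5GFPDTR/+ allele and labelled wild type otherwise, and the replicates were separate differentiation experiments with that line. Before RANKL, the treated cultures had spent 3 days with 3 µM CHIR99021, an inhibitor of GSK3, and 1.5 mM valproic acid, an inhibitor of histone deacetylases, and 1 day in ENR. The labels do not say whether the controls had this pretreatment, so it and RANKL cannot be told apart, and the name CVENR in the control columns is not explained. In bulk libraries fewer cells with an open window and less opening per cell cannot be told apart. P-values measure the spread between experiments with 1 line, not between animals.

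The libraries held 322173, 466521 and 828445 reads in the windows for RANKL and 920681, 976881 and 455083 for control, so that 80 CPM stood for 25.8 to 66.3 reads in RANKL libraries and 36.4 to 78.2 reads in control libraries. Of 16 epithelial genes, 14 had a window within 1 kb of an end, with summed levels of 584 to 686 CPM in RANKL and 549 to 639 CPM in control libraries. Only 1 of 14 haematopoietic genes and 3 of 16 mesenchymal, endothelial and neural genes had such a window, and the tissue label and the markers did not conflict.

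Regions open in nearly every cell type are mostly promoters of broadly used genes. Such promoters are often rich in CG dinucleotides and lack a TATA box, and they carry short sequences read by general activators: GC boxes by SP and KLF proteins, CCAAT boxes by the trimeric factor NF-Y, and sites for ETS proteins, NRF1, YY1 and CREB. NF-Y binds DNA through subunits that fold like histones and is known for keeping promoters free of nucleosomes. In the intestine, genes of cell identity are more often controlled by distal enhancers.

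Most of the windows lay on promoters, and of the motifs searched, CCAAT had the share that differed most from that of other promoters with a window. The following stretches are the parts of RefSeq promoters (GRCm38.p6, the 250 bases before each listed start) that lay inside a strong shared window, 5′ to 3′ on the strand of the gene. Capitals mark matches to the CCAAT, GC box, ETS, NRF1, YY1 and CREB letters only. Matches to the other letters searched were left in lower case, among them tgattca in Sel1l, which fits the AP-1 letters TGANTCA. The first 4 are shown as promoters with at least 2 CCAAT copies, in either orientation (CCAAT or ATTGG), in the stretch.
Osbp (chr19:11965594-11965712, plus strand): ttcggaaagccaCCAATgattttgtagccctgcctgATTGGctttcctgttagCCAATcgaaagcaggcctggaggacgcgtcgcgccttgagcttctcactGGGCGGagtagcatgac
Sel1l (chr12:91849198-91849397, minus strand): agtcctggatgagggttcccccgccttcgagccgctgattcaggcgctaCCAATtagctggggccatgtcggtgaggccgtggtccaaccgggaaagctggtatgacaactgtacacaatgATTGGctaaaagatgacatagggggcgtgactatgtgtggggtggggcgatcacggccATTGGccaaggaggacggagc
Leprot (chr4:101647533-101647606, plus strand): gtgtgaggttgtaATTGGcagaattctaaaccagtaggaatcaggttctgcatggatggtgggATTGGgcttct
Pja2 (chr17:64332029-64332133, minus strand): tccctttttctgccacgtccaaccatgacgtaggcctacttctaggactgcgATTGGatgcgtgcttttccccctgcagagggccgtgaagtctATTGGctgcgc

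Osbp, which carries sterols from the endoplasmic reticulum (ER) to the Golgi, had 3 CCAAT copies in the stretch and a GC box. Sel1l, the adaptor of an ER membrane ubiquitin ligase that clears misfolded proteins, also had 3. Leprot, an endosomal membrane protein, and Pja2, a RING ubiquitin ligase, had 2 each. The Osbp window held 214, 212 and 155 CPM in RANKL libraries, against 141, 159 and 169 CPM in control libraries. The Sel1l window held 189, 161 and 175 CPM in RANKL libraries, against 169, 144 and 187 CPM in control libraries. The Pja2 window held 196, 131 and 138 CPM in RANKL libraries, against 135, 144 and 196 CPM in control libraries. In all 3 the groups overlapped.

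The next 5 stretches show the other promoter letters found in these windows: NRF1 in Etfdh, ETS in Hjurp, CRE in Ing3, YY1 in Atp5j and a GC box in Suco.
Etfdh (chr3:79628779-79628978, minus strand): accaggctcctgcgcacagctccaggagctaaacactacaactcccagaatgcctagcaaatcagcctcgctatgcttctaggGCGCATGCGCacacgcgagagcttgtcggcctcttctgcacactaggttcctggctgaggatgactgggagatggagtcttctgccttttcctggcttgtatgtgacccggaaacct
Hjurp (chr1:88277580-88277738, minus strand): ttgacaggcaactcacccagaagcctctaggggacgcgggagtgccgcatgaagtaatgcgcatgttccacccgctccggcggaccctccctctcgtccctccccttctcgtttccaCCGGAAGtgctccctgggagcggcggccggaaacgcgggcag
Ing3 (chr6:21949384-21949570, plus strand): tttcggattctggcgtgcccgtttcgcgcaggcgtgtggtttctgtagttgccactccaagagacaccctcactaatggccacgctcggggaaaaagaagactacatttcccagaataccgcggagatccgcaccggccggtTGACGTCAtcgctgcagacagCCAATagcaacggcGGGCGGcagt
Atp5j (chr16:84834977-84835102, minus strand): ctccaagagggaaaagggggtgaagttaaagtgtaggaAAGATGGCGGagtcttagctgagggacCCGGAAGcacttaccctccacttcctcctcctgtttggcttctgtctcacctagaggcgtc
Suco (chr1:161876769-161876932, minus strand): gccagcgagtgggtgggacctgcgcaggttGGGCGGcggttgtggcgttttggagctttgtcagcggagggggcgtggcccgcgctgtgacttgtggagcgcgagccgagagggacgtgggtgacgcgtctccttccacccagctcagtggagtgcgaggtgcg

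Etfdh passes electrons from mitochondrial flavoproteins to ubiquinone, Hjurp loads the centromeric histone variant CENP-A, Ing3 is a subunit of a histone acetyltransferase complex, and Atp5j is a subunit of mitochondrial ATP synthase. The Hjurp window held 192, 167 and 168 CPM in RANKL libraries, against 188, 182 and 222 CPM in control libraries. The Suco window held 177, 165 and 153 CPM in RANKL libraries, against 156, 164 and 163 CPM in control libraries. The Atp5j window held 99.3, 107 and 96.6 CPM in RANKL libraries, against 121, 101 and 110 CPM in control libraries. Here too the groups overlapped in each of the 3.

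The windows sat at gene ends far more often than the series as a whole. Of the 379, 316 (83.4%, exact 95% binomial interval 79.2% to 87.0%) lay within 1 kb of an end of a protein-coding gene, against 18.7% of all 55056 windows. Within 200 bp of such an end lay 62.8%, against 12.99% of all windows. Only 13 (3.43%) were over 50 kb from any coding gene end, against 29.98% of all windows. This distance also counts windows deep inside long genes, as at Xkr4 and Stard13. Each of the 316 windows had a nearest gene of its own, so no gene had more than 1 strong window within 1 kb as its nearest gene. Inside the body of a coding gene lay 40.6%, against 46.8% of all windows. The gene table gives bodies only, without exons.

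A listed transcription start lay within 500 bp of the centre in 284 windows (74.9%), against 16.4% of all windows. The centre was upstream of the start in 231 of these 284 (81.3%), against 70.8% of the 9014 windows of the whole series with a start that near. The median centre lay 82 bp upstream in strong shared windows (quartiles -167 and -25 bp) and 38 bp upstream in all windows (-89 and 10 bp). Starts on both strands were listed within 500 bp for 81 of 284 (28.5%, interval 23.3% to 34.2%), against 16.5% of the 6893 other windows near a gene end with a start. The strong windows thus had centres farther upstream than all windows near a start, and starts listed on both strands more often than other windows near a gene end.

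**Figure D1:**
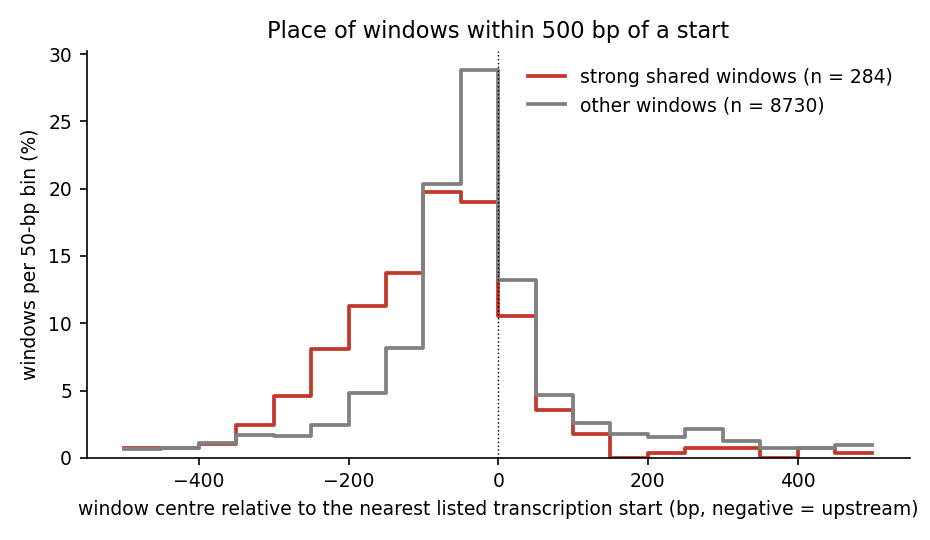
Share of windows (y axis, % per 50-bp bin) by the distance of the window centre from the nearest listed transcription start (x axis, bp, negative upstream). Red: the 284 strong shared windows with a start within 500 bp. Grey: the 8730 other windows with one. In the bin from 150 to 200 bp upstream lay 11.3% of the strong windows and 4.79% of the others, and the highest bin of the others, the 50 bp before the start, held 19.0% and 28.8%.

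Of the 63 windows farther than 1 kb from a coding gene end, 26 still had a listed start within 500 bp. A further 15 lay inside a coding gene, 14 outside, 2 within 1 kb of an end of a non-coding gene or pseudogene, and 6 on 1 unplaced scaffold for which the table lists no gene. The farthest from a coding gene end was a window at chr9:17675629-17675828, 616539 bp from Chordc1. It held 127, 96.5 and 92.9 CPM in RANKL libraries, against 125, 118 and 158 CPM in control libraries, and the groups overlapped. A window at chr1:7397959-7398158 was 224430 bp from the coding gene Pcmtd1 but 38 bp from an end of the non-coding gene Gm26901. It held 83.8, 96.5 and 109 CPM in RANKL libraries, against 117, 127 and 158 CPM in control libraries, with all RANKL libraries lower. The other 3 of the 5 farthest were 281844 bp from Pex2, 236435 bp from Myt1l and 159438 bp from Spry2.

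The windows were spread unevenly over chromosomes. Chromosome 12 held 41 of them (10.8%), against 4.84% of all windows. Counting only windows within 1 kb of a gene end, 38 of 350 on chromosome 12 were strong and shared (10.9%), while the next chromosome, 16, had 18 of 335 (5.37%). At the other end, chromosome 11 had 10 of 800 (1.25%) and chromosome X had 2 of 295 (0.678%). The median level of gene-end windows on chromosome 12 was 39.98 CPM, next to 39.4 CPM on chromosome 18 and 27.7 CPM on chromosome 11. Among the members on chromosome 12 were Sel1l, Dnajb9, Scfd1, Sp4 and Klf11. Copy number was not measured, and its part in these counts was not tested.

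The promoters under the windows were GC-rich and rarely held a TATA box. The 300-bp RefSeq promoter (250 bases before to 50 after the start) had a median GC content of 63.7% in the 284 strong shared windows, 60.7% under the other 8730 windows with a start and 52.7% over all 32851 listed promoters. The observed over expected frequency of CG was 0.807, 0.761 and 0.384 in the same 3 sets. The letters TATAAA were found in 3.17% of the promoters of strong windows, 7.62% of those of other windows and 13.6% of all promoters. Other windows with a mean of 40 to 80 CPM were alike in composition, with 62.7% GC and a CG frequency of 0.817. TATAAA stood in 5.26% of their promoters (interval 4.49% to 6.11%), which overlapped the interval of strong windows (1.46% to 5.93%).

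Among 12 motifs searched on both strands, CCAAT had the largest difference in share between strong windows and other promoters with a window. CCAAT stood in 182 of 284 promoters (64.1%, interval 58.2% to 69.7%), against 38.8% of those under other windows and 37.4% of all promoters. GGGCGG, the GC box of SP and KLF proteins, stood in 80.6%, against 64.1% under other windows and 35.7% of all promoters. CCGGAAG, the ETS letters, stood in 19.4%, against 18.1% under other windows and 8.86% of all promoters. The NRF1 palindrome stood in 7.39%, against 10.8% under other windows and 4.603% of all promoters. The intervals left CCAAT and GC boxes higher in strong windows (75.6% to 85.1% for GC boxes) and ETS letters overlapping (14.9% to 24.4%, against 17.3% to 18.9%). The YY1 motif and TGACGTCA (CRE) stood in 1.41% each, against 2.03% and 3.47% under other windows and 0.852% and 1.79% of all promoters. Letters searched for factors of gut and immune identity had shares below those under other windows, but the intervals overlapped for each. AGATAA, read by GATA factors, stood in 3.87%, against 6.25%. GGGANNTCC, the only form of NF-kB letters searched, stood in 3.17%, against 5.70%. TTTATNG, read by CDX factors, stood in 7.04%, against 7.49%. TGANTCA, read by AP-1, stood in 4.93%, against 5.51%. The CTCF core stood in 14.4%, against 13.7% under other windows. Under other windows of 40 to 80 CPM, CCAAT stood in 47.1%, GC boxes in 73.9% (interval 72.3% to 75.4%) and ETS letters in 21.5%. The NRF1 palindrome stood in 14.6% there (13.4% to 15.9%), above its interval in strong windows (4.64% to 11.1%). GATA and NF-kB letters stood in 4.86% and 5.69% there. CDX and AP-1 letters stood in 6.38% and 4.13%, below their shares in strong windows. A match is a string of letters, not a bound site. CCAAT shares 2 bases with its own reverse complement in CCAATTGG, which then counts as 2 copies and stands in 0.435% of all promoters.

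Repeated CCAAT copies were more frequent at higher window levels. Copies were counted after these shares had been seen. At least 2 copies stood in 123 of 284 promoters of strong shared windows (43.3%, interval 37.5% to 49.3%). In other windows the share was 5.74% under 10 CPM, 7.39% from 10 to 20 CPM, 10.8% from 20 to 40 CPM, 22.1% from 40 to 80 CPM and 35.5% at 80 CPM or more, and it was 11.7% over all promoters. At least 3 copies stood in 62 of 284 (21.8%), against 5.06% under all other windows and 3.37% of all promoters. The intervals of strong shared windows and of other windows of 80 CPM or more (30.9% to 40.3% for 2 copies) overlapped. GC content moved with level too, with medians of 54.3% under 10 CPM, 62.7% from 40 to 80 CPM and 63.7% in strong shared windows, and its part in the CCAAT counts was not tested.

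**Figure D2:**
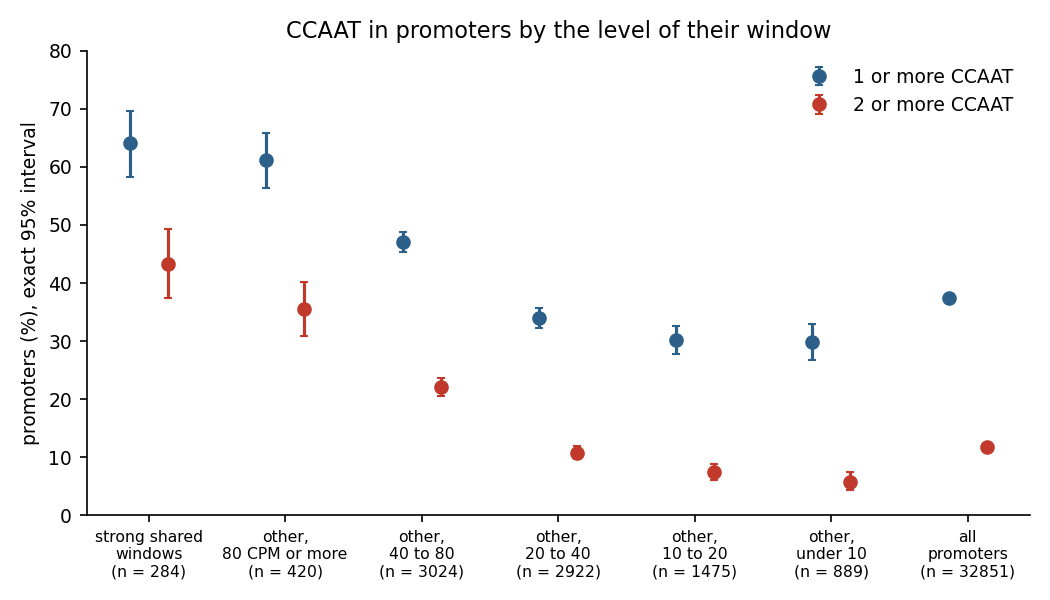
Promoters (y axis, %, with exact 95% binomial intervals) that held at least 1 CCAAT (blue) or at least 2 (red), for strong shared windows, for other windows with a start within 500 bp by their mean level in CPM, and for all listed promoters (x axis). Both shares were higher at higher levels; for 2 copies they ran from 5.74% under 10 CPM to 43.3% in strong shared windows.

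Within the strong windows the centre lay farther upstream with more copies, while median levels, which the rule cut at 80 CPM, differed little. The median level was 107 CPM without CCAAT (102 windows), 118 CPM with 1 copy (59), 114 CPM with 2 (61) and 113 CPM with at least 3 (62). The window centre lay 60.5 bp upstream of the start without CCAAT and 83.0, 96.0 and 102.5 bp upstream with 1, 2 and at least 3 copies (medians). The 399 copies had a median position 101 bp upstream of the start, against 81 bp for those under other windows and 90 bp over all promoters. They read ATTGG on the strand of the gene in 54.1%, against 50.0% under other windows.

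There were 24 promoters with at least 4 copies. Eif2ak3, the ER stress kinase PERK that dampens translation, had 6, and Dnajb11, a co-chaperone of the ER, had 5, as had Osbp and Tmx2, a thioredoxin-related membrane protein. Hmgcs1, which makes the precursor of mevalonate for sterol synthesis, had 4, as had the kinases Mtor and Gsk3b, the chaperone adaptor Stip1 and the chromatin protein Hmgb2. The Eif2ak3 window held 121, 116 and 96.6 CPM in RANKL libraries, against 126, 121 and 98.9 CPM in control libraries. The Hmgcs1 window held 139.7, 109 and 95.4 CPM in RANKL libraries, against 141, 127 and 125 CPM in control libraries. The Hmgb2 window held 137, 141 and 122 CPM in RANKL libraries, against 102, 95.2 and 87.9 CPM in control libraries. The groups overlapped for Eif2ak3 and Hmgcs1, while all RANKL libraries were above all controls for Hmgb2, at a ratio of 1.40 that was still inside the rule.

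Genes of ER protein quality control recurred among the nearby genes. Of 36 such genes with a window within 1 kb, from a list of 38 drawn up after the names of the members had been seen, 11 (30.6%) had a strong shared window, against 384 of 11108 coding genes with a window (3.46%). A list made in that way is a description. Among the 11 were the co-chaperones Dnajb9, Dnajb11 and Dnajc3, the chaperone Hspa13, the mannose-trimming protein Edem3, the degradation factor Sel1l and the degradation inhibitor Svip. The others were the kinase Eif2ak3, the insertase subunit Emc2, the oligosaccharyltransferase subunit Stt3a and the ER thioredoxin Txndc16. The Dnajb9 window held 146, 122 and 104 CPM in RANKL libraries, against 126, 125 and 119 CPM in control libraries. Over the 11, mean levels ran from 93.9 to 171 CPM and RANKL to control ratios from 0.825 to 1.21. A listed start lay within 500 bp of the window for 9 of them. The nearest start was that of another gene at Edem3 (2810414N06Rik), Stt3a (Gm26787) and Txndc16 (Gpr137c). Of the 9 promoters at these windows, not all of the named gene itself, 9 held CCAAT, 7 at least 2 copies. Other families, also picked by name after the members were seen, were Rab GTPases with 7 of 52 genes (13.5%), KLF factors with 3 of 12 (Klf9, Klf11 and Klf13), SP factors with 2 of 6 (Sp1 and Sp4), Zbtb genes with 3 of 32 (9.38%) and Zfp genes with 13 of 267 (4.87%).

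Few genes of the core cellular machines had a strong shared window, as had few coding genes in all (3.46%). Of 18 gene lists covering core machinery, the intestine and other cell types, 15 had no gene with a strong shared window within 1 kb. Among them were 27 genes of RNA polymerase II and basal transcription, 24 splicing factors, 25 proteasome subunits and 21 translation factors that did have a window. Rpl37 was the 1 of 27 cytosolic ribosomal protein genes, Ndufb5 the 1 of 22 respiratory chain genes and Anxa5 the 1 of 11 M cell genes. The window at Rpl37 (nearest to Card6) held 109, 81.5 and 97.8 CPM in RANKL libraries, against 117, 111 and 119 CPM in control libraries. The window at Ndufb5, a subunit of complex I, held 83.8, 118 and 95.4 CPM in RANKL libraries, against 115, 90.1 and 87.9 CPM in control libraries. The window at Anxa5, a phospholipid-binding annexin used as a marker of M cells, held 127, 116 and 89.3 CPM in RANKL libraries, against 86.9, 92.1 and 96.7 CPM in control libraries. All RANKL libraries were below all controls at Rpl37, and the groups overlapped at Ndufb5 and Anxa5. The 14 epithelial, 16 intestinal factor, 13 crypt stem cell and 18 NF-kB pathway genes with a window had no strong shared one.

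Mean levels ran from 86.8 to 583 CPM with a median of 113 CPM, and RANKL to control ratios from 0.677 to 1.43 with a median of 0.986. The coefficient of variation over the 3 libraries of a group had a median of 13.7% in RANKL and 11.2% in control. The windows took 4.92%, 4.42% and 4.02% of the reads of the RANKL libraries, against 4.23%, 4.29% and 5.01% of those of the control libraries. Their share was highest in the shallowest library of each group.

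The 3 highest windows had no listed start within 500 bp. The highest, on the unplaced scaffold, held 872, 611 and 429.7 CPM in RANKL libraries, against 434, 405 and 747 CPM in control libraries. The next, at chr17:39846748-39846947, lay inside Rn18s-rs5, an 18S ribosomal RNA pseudogene, 493 bp from an end of it, and held 391, 328 and 228 CPM in RANKL libraries, against 201, 188 and 286 CPM in control libraries. The next again, at chr9:123461903-123462102 inside Lars2, the mitochondrial leucyl-tRNA synthetase, held 388, 264 and 223 CPM in RANKL libraries, against 218, 194 and 301 CPM in control libraries. In all 3 the first RANKL and the third control library, the shallowest of their groups, were the highest, and the groups overlapped. How reads that match several places were handled is not given in the sources used here. Of 13 windows on that scaffold, 6 were strong and shared.

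Hjurp, Zfp960, Mtrf1l, Osbp and Gm51425 led the windows near coding genes apart from Lars2. The Zfp960 window, at a zinc finger gene, held 217, 182 and 155 CPM in RANKL libraries, against 148, 163 and 213 CPM in control libraries. The Mtrf1l window, at a mitochondrial release factor, held 211, 191 and 145 CPM in RANKL libraries, against 162, 156 and 193 CPM in control libraries. The Gm51425 window held 149, 159 and 156 CPM in RANKL libraries, against 168, 180.2 and 237 CPM in control libraries. All RANKL libraries were below all controls at Gm51425, and the groups overlapped at Zfp960 and Mtrf1l. Within the strong windows, level was nearly unrelated to promoter GC content (Spearman's rho -0.0088 across 284 windows, which share the libraries). The rule had cut these levels at 80 CPM, so nothing is read from this about windows at lower levels.

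**Figure D3:**
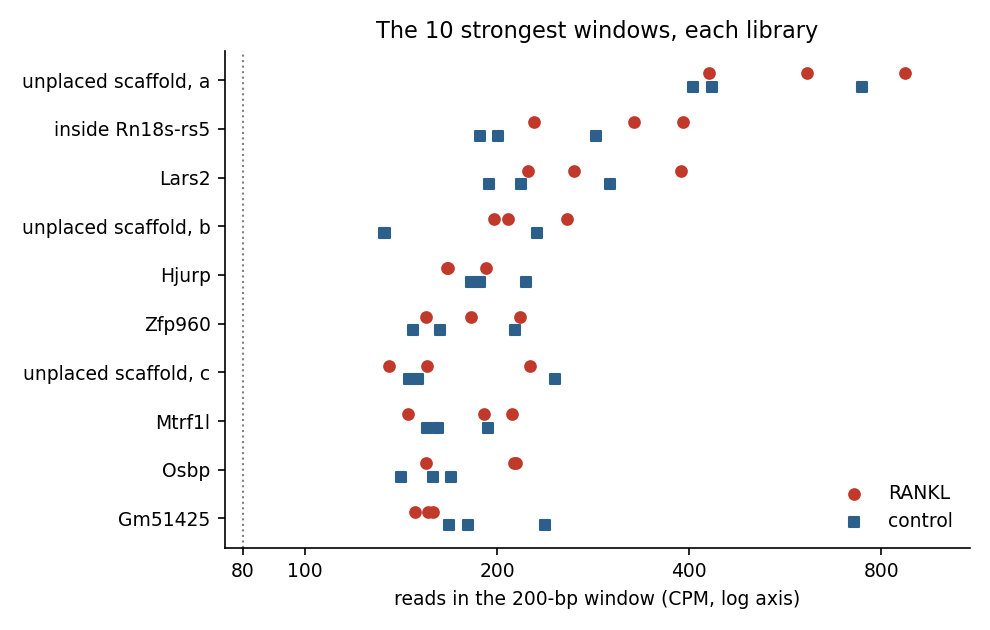
Level (x axis, CPM, log axis) of the 10 highest of the 379 windows (y axis). Windows are named by nearest coding gene, and those on the unplaced scaffold and inside Rn18s-rs5 by place. Red circles: the 3 RANKL libraries. Blue squares: the 3 control libraries. The dotted line is at 80 CPM. The scaffold window at the top ranged from 429.7 to 872 CPM with RANKL and from 405 to 747 CPM in control; at Gm51425 the RANKL libraries were all lower.

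At the thresholds, the lowest library was at 80.4 CPM for the windows at Syncrip, an RNA-binding protein, Wwox, an oxidoreductase, and Wbp11, a splicing protein, which were just inside. Just outside were Ing2 and Edem1 at 79.8 CPM and a window 157165 bp from Apob at 79.7 CPM. The lowest ratios inside were 0.677 at Sdccag8, 0.685 at the window 159438 bp from Spry2 and 0.693 at Gm5165, and the one just outside was 0.664 at Hsf2. The highest inside were 1.43 at the window 10196 bp from Myl12b, 1.42 inside Myo3a and 1.40 inside Rn18s-rs5. The nearest of those above the limit were 1.57 at the window 8433 bp from Rimbp3, 1.63 at the window 24183 bp from Rpp21 and 1.81 inside Zc3h7a. Of 385 windows over 80 CPM in all libraries, 6 failed on the ratio.

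The share of reads in the centre was measured as the 200-bp reads over the reads in 2 kb around the same centre. Over all strong shared windows it was 41.3%, 39.7% and 38.4% in RANKL libraries, against 38.5%, 37.4% and 39.5% in control libraries. It averaged 39.8 ± 1.48% in RANKL and 38.5 ± 1.02% in control libraries (SD, n = 3 each), a difference of 1.32 points with overlapping groups. Over all windows it averaged 35.5 ± 1.35% in RANKL and 40.4 ± 0.551% in control libraries, with all RANKL libraries lower. The difference over strong windows thus had the opposite sign to that over all windows.

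The fall over all windows was largest, of the classes compared, in other windows farther than 1 kb from a gene end. Other windows within 1 kb of a gene end averaged 38.0 ± 1.23% in RANKL and 38.9 ± 0.322% in control libraries. Other windows farther away averaged 33.8 ± 1.47% in RANKL and 41.4 ± 0.722% in control libraries, a difference of -7.55 points. Strong windows within 1 kb averaged 40.5 ± 1.53% in RANKL and 38.8 ± 0.934% in control libraries. The 63 strong windows farther away averaged 36.9 ± 1.41% in RANKL and 36.9 ± 1.64% in control libraries. Of these 4 classes, only the other windows farther than 1 kb from a gene end had groups that did not overlap. Because the centre reads chose the members, these differences are a description.

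**Figure D4:**
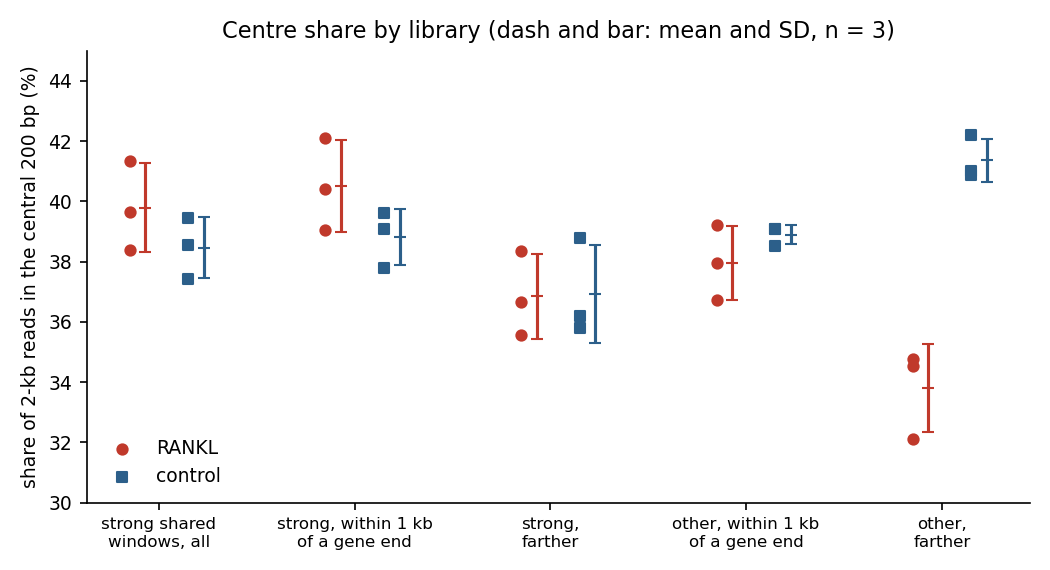
Share of the 2-kb reads that fell in the central 200 bp (y axis, %, starting at 30) for classes of windows (x axis). Each point is 1 library, red circles for RANKL and blue squares for control; dashes and bars are the mean and SD (n = 3). Strong shared windows averaged 39.8% with RANKL and 38.5% in control. Other windows farther than 1 kb from a gene end averaged 33.8% with RANKL and 41.4% in control.

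By single window, all RANKL libraries had a higher centre share than all controls in 57 of 379 strong windows, against 3.8% of the 51877 windows with reads in all libraries. All RANKL libraries had a lower one in 13, against 14.4% of those windows. The rule used the centre reads of the same contrast, so nothing is read from these counts. Over all libraries together the share ran from 18.6% to 95.4%, with 6 windows at 60% or more and 10 under 25%. It was lower at more GC-rich promoters (Spearman's rho -0.26 across 284 windows).

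A pair of windows held nearly all of their 2-kb reads in the centre, and neither was near a coding gene. The window at chr3:5860341-5860540, 281844 bp from Pex2, had shares of 93.9%, 95% and 91.3% in RANKL libraries, against 95.7%, 97.2% and 100% in control libraries. The window at chr17:70963668-70963867, 10196 bp from Myl12b, had shares of 93.5%, 97.1% and 92.3% in RANKL libraries, against 88.9%, 92.5% and 93.3% in control libraries. The lowest of these shares was 88.9%. Next came Lars2 at 70.1%, Scfd1 at 67.3% and the window inside Rn18s-rs5 at 63.5% over all libraries. Scfd1, a regulator of membrane fusion between ER and Golgi, was the only one of these 5 with a listed start within 500 bp, and had 67.4%, 67.9% and 68.7% in RANKL libraries, against 65.0%, 68.6% and 65.8% in control libraries.

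The 5 windows with the lowest shares were 4 on the unplaced scaffold, at 18.6% for 2 of them and 22.2% for the other 2, and Sp4 at 22.2%. Sp4, a GC box factor, had shares of 25.4%, 25.3% and 22.7% in RANKL libraries, against 21.0%, 21.2% and 21.2% in control libraries, with all RANKL libraries higher. Sel1l, by contrast, had 62.2%, 55.1% and 57.8% in RANKL libraries, against 55.5%, 53.0% and 54.8% in control libraries, and these overlapped.

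The flanks, the 2 kb less the central 200 bp, had lower RANKL than control means around most strong windows on both read scales used; with loess offsets the median difference was near 0 and calls were about as often higher as lower. Scaled to the total of flank reads (flank CPM), the RANKL mean was below the control mean in 349 windows and above it in 30, with a median log2 ratio of -0.43 beside 0.20 over all windows. Scaled to the total of 200-bp reads, it was below in 264 and above in 115, with a median of -0.13 beside 0.51, so the size and the number of falls depended on the scale. All RANKL libraries were below all controls in 241 windows by flank CPM, against 10.6% of all windows, and in 97 windows scaled to 200-bp reads, against 4.72%. By edgeR's quasi-likelihood test, which was fitted over 36859 flanks, 197 of the 377 tested were called lower and 1 higher, against 8.23% and 5.54% of all flanks. Without RANKL replicate 3, 126 were called lower. With loess offsets, which remove a trend with level, 22 were called lower and 24 higher and the median was -0.06, so the count rests on how libraries are scaled across levels. The flanks of strong windows held 4.01%, 3.45% and 3.62% of all flank reads in RANKL libraries, against 4.68%, 4.76% and 5.18% in control libraries. The rule used the same contrast in the centre, and nothing is read from these calls beyond their number.

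The lowest flank ratios were at Pitrm1, a mitochondrial peptidase, at Emc2, and at the window 159438 bp from Spry2, an inhibitor of receptor tyrosine kinase signalling. Flanks at Pitrm1 held 24.9, 41.8 and 42.1 flank CPM in RANKL libraries, against 95.7, 95.1 and 102 in control libraries. Flanks at Emc2 held 41.0, 45.1 and 63.8 flank CPM in RANKL libraries, against 113, 108 and 141 in control libraries. In the centre, Emc2 held 139.7, 122 and 97.8 CPM in RANKL libraries, against 123, 119 and 125 CPM in control libraries. The flank groups did not overlap in either, while the centre groups at Emc2 did. Flanks of the window 281844 bp from Pex2 held 5.34, 4.40 and 6.11 flank CPM in RANKL libraries, against 3.77, 2.04 and 0 in control libraries, too few for the test.

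**Figure D5:**
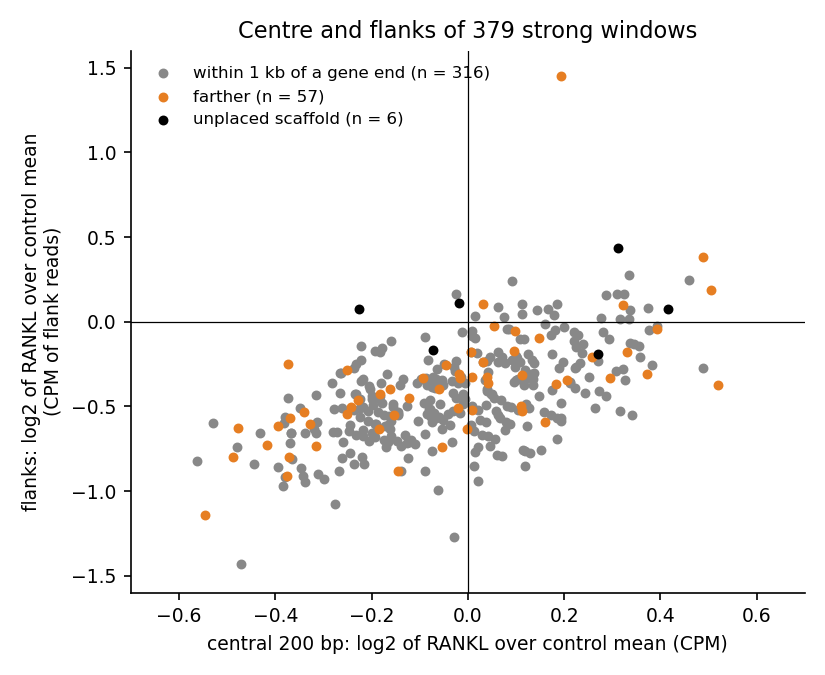
Each point is 1 of the 379 windows. X axis: log2 of the RANKL mean over the control mean in the central 200 bp (CPM), which the rule limits. Y axis: the same in the flanks (flank CPM). Grey: within 1 kb of a coding gene end (316). Orange: farther (57). Black: unplaced scaffold (6). Flanks lay below 0 in 349 windows; the highest point, the window 281844 bp from Pex2, has at most 6.11 flank CPM in any library.

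In the centre itself, edgeR called 9 of the 379 higher and 4 lower, against 10.0% and 10.0% of the 21618 windows tested (20.1% in either direction). The rule limits these ratios, and DESeq2 called 0. In edgeR 41 had an unadjusted p under 0.05, and 4 to 17 were called when single libraries were left out (6 and 5 without RANKL replicates 1 and 2, and 4 without control replicate 1 or 2).

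Genes with a strong shared window also had other windows, which the rule did not choose, and some of these changed. Within 50 kb of the 316 genes lay 618 other windows whose nearest gene was the same. Of these, 200 were deep enough to test: 18 (9%) were called higher and 38 (19%) lower by edgeR, against 10.0% and 10.0% of all tested windows. With DESeq2 22 were higher and 15 lower. Over the whole series DESeq2 called 2195 of 47584 tested windows higher and 950 lower, so its background leaned to higher windows. How many of the 618 it tested was not counted. The edgeR count of higher windows was 8 when RANKL replicate 3 was left out, and that of lower windows 25 when control replicate 1 was left out. The tested windows belonged to 120 genes, of which 17 had a higher window, 34 a lower one and 3 both. The examples below were picked by size after their values were seen.

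Among the higher ones, a window 20653 bp from an end of Ttc21b and inside this gene for ciliary transport held 65.2, 47.2 and 45.9 CPM in RANKL libraries, against 7.60, 1.02 and 4.39 CPM in control libraries. Its log2 fold change was 3.57 ± 0.449 (SE, edgeR adjusted p = 5.68e-13), and 4.502 and 2.94 without control replicates 1 and 2. The strong window of Ttc21b, 52259 bp away between centres, held 93.1, 92.2 and 99.0 CPM in RANKL libraries, against 121, 118 and 132 CPM in control libraries. A window inside Rab30, a Golgi GTPase, 95888 bp from its strong window, rose by 3.00 ± 0.430 on the log2 scale (edgeR adjusted p = 4.22e-10). One 35288 bp from Ripk2, the kinase below NOD receptors, rose by 1.98 ± 0.552 (edgeR adjusted p = 0.00369). A window 15208 bp from Dut, the dUTPase, held 21.7, 32.2 and 35.0 CPM in RANKL libraries, against 0, 1.02 and 0 CPM in control libraries (edgeR adjusted p = 2.96e-10), too few control reads for a fold change. In each of these the RANKL libraries were all above the controls.

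Among the lower ones, a window 11827 bp from Tasp1, a protease of nuclear factors, held 24.8, 17.1 and 8.45 CPM in RANKL libraries, against 72.8, 82.9 and 76.9 CPM in control libraries. It fell by 2.37 ± 0.291 on the log2 scale (edgeR adjusted p = 1.4e-13). The strong window of Tasp1, 245156 bp away between centres, held 130.4, 114 and 92.9 CPM in RANKL libraries, against 118, 127 and 116 CPM in control libraries. One 40406 bp from Bard1, the partner of BRCA1, held 0, 2.14 and 3.62 CPM in RANKL libraries, against 31.5, 19.4 and 41.8 CPM in control libraries (edgeR adjusted p = 1.27e-06), too few RANKL reads for a fold change. One 24330 bp from Sypl, a vesicle membrane protein, held 9.31, 6.43 and 1.21 CPM in RANKL libraries, against 26.1, 26.6 and 37.4 CPM in control libraries. It fell by 2.61 ± 0.549 (edgeR adjusted p = 4.95e-05), and without RANKL replicate 3 it fell by 1.85. One 6051 bp from Ankrd50, an ankyrin repeat protein of endosomes, fell by 1.99 ± 0.416 (edgeR adjusted p = 4.43e-05). At each of these genes the rule held the strong window within its ratio. Inside that ratio, all RANKL libraries were below all controls in the strong windows of Ttc21b, Dut and Bard1. They were above all controls in that of Ripk2. The groups overlapped in the strong windows of Rab30, Tasp1, Sypl and Ankrd50. Nearness alone does not tie a window to a gene.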

How the data were processed

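The authors deposited raw read counts for 55056 windows of 200 bp in 6 libraries, and a normalized score per library for 2-kb windows around 55050 of the same centres. From the values, the deposited score is a natural log of count plus 1, centred and scaled within each library. Whole 2-kb reads were recovered from it to within 0.00579 of a whole number, and flank reads are these less the 200-bp counts. Tools listed in the submitters' processing notes are MACS2 2.2.7, BWA 0.7.17, DESeq2 1.34.0, fastp 0.20.1 and Picard, with mm10 and GRCm38 as builds and no role for any. The handling of duplicates, of reads that match several places and of the Tn5 cut offset, and the choice of windows, are not stated in the labels or headers. All 6 columns were mapped to samples by their names, and 0 were left over.

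Members were taken by CPM from column sums. Starts were read as counted from 0 and are printed from 1. Gene ends came from RefSeq genes of GRCm38.p6 (21896 coding genes) and starts and sequences from its promoter table (32851 entries of 27025 genes), which does not list every gene. No genome was used here, so motifs could be searched only in promoters. Tests used edgeR 4.0.16 in R 4.3.3 (TMM, filterByExpr, robust quasi-likelihood fit), with Benjamini-Hochberg adjustment over all tested windows at 0.05, and DESeq2 1.42.0 as an alternative. SE is the absolute log2 fold change over the root of F. On counts simulated for the 200-bp comparison (21618 windows), a 2-fold change was recovered in 48 of 100 windows and a 4-fold change in 84 of 100, with 4 of 19290 unchanged ones called. For the flanks (36859), these were 32, 68 and 3 of 33428. Intervals are exact binomial and cover counting error only. Windows and gene lists were chosen with earlier results of these data known. Named windows were the 10 highest, the 5 highest and 5 lowest in centre share, the 3 on each side of each threshold, the 5 farthest from coding genes, the 3 highest and lowest in flank ratio, and up to 2 per gene list; all other names, among them the sequence examples, the promoters with many CCAAT copies and the genes given on chromosome 12, were picked with values in view.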

Additional observations from a re-analysis of the deposited data

How the results depend on the processing

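A minimum of 60 CPM gave 1058 windows and one of 100 CPM gave 124; leaving out each library in turn gave 388 to 437. The share within 1 kb of a coding gene end stayed at 81.3% to 84.0% without each library, and was 78.9% at 500 bp and 87.9% at 2 kb. The centre share difference was 0.552 to 2.03 points without each library, and -0.0742 points for the strong windows farther than 1 kb from a gene end. The share of promoters with at least 2 CCAAT copies, whose alternatives were chosen after seeing the data, was 41.8% to 44.3% without each library and moved by less than its interval in 13 of 13 alternatives. For 200-bp windows, 4335 were called, 2812 to 5006 without each library (2812 without RANKL replicate 3). Of the strong windows, 13 were called in the centre, 0 by DESeq2, 8 without a filter on low counts, 3 with the replicate block and 4 to 17 without each library (6 and 5 without RANKL replicates 1 and 2, 4 without control replicate 1 or 2). For flanks, 5075 were called, 2837 with loess offsets and 3266 to 5208 without each library (3266 without RANKL replicate 3). Strong windows called lower in the flank numbered 197, but 22 with loess offsets and 126 to 254 without each library (126 without RANKL replicate 3). Other windows of the same genes called higher numbered 18, 30 without a filter and 8 to 23 without each library, and those called lower 38, 15 by DESeq2 and 25 to 46 without each library, in alternatives chosen after seeing the data.

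The labels number the experiments, but same-numbered libraries did not deviate together (correlations of -0.034, 0.015 and -0.013 in the 200-bp windows), so the numbers were not used as pairs. With the replicate block 3634 windows, 4534 flanks and 187 strong windows lower in the flank were called. At 26 to 79 reads, the lowest counts of these windows limit what a single window can show. Whether reads that match several places were kept bears on the windows of the unplaced scaffold and inside Rn18s-rs5, and was not tested. Its part at Lars2 and at the pair of windows with nearly all of their reads in the centre was not tested either.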
